A study of Homo sapiens with 32 samples.

Results

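The response to etoposide of U2OS cells with wild-type p53 was described over all genes of the series' expression matrix. It compared all 4 libraries of p53 WT/WT cells with 20 µM etoposide for 24 h against all 4 libraries of the same cells with DMSO for 24 h, which are 8 of the 32 libraries of the series. The matrix held 35587 gene symbols, of which 15490 passed a filter on low values in these 8 libraries and were tested. U2OS is an established human osteosarcoma line, grown here as adherent cultures, and each library came from a separate plate, which the series counts as a biological replicate. P-values therefore measure the spread between plates of 1 cell line. The other libraries came from cells edited with CRISPR-Cas9 to carry no p53 (KO), or to carry the A347D change on 1 or both p53 alleles, with the same 2 treatments. KO cells with DMSO or etoposide for 24 h, 4 plates each, serve below to show which changes differed without p53. The number of edited clones behind the KO cells is not given in the sources used here, so genotype and clone cannot be told apart.

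Etoposide binds topoisomerase II, the enzyme that passes one DNA duplex through a cut in another, and traps it on the cut DNA, which leaves double-strand breaks. The kinases ATM, ATR and CHEK2 then modify p53, a transcription factor that works as a tetramer, and its ubiquitin ligase MDM2 loses its hold on it. Active p53 switches on genes for cell cycle arrest, apoptosis, DNA repair and metabolism, and also MDM2, which limits the response. Its target CDKN1A encodes p21, an inhibitor of cyclin-dependent kinases. When these kinases are inhibited, pocket proteins stay bound to E2F factors and form the DREAM complex, which represses genes of the S phase through E2F sites and genes of mitosis through an element called CHR. Breaks in DNA also activate NF-kB and other inflammatory pathways that do not require p53.

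Recovered read totals were 18.25 to 24.19 M reads per library, in which 1 read was worth 0.840 to 1.02 normalized counts. No 2 replicates differed by as little as sampling noise: chi-square over degrees of freedom was 4.13 to 62.8. Bone lineage transcripts were present in part. COL1A1, the main collagen of bone, was at 59769 ± 19678 normalized counts in DMSO (here and below mean ± SD over n = 4 libraries). Of 21 osteoblast lineage genes in the matrix 13 were tested. Among those not tested, BGLAP, IBSP and DMP1 had DMSO means of 7.81, 0 and 0, and TWIST1 had 1 read in the DMSO libraries. TERT, the catalytic part of telomerase, which U2OS cells are known to lack, was at 3.54 to 11.2 in the 8 libraries, and CDKN2A, which encodes p16 and ARF and is silent in this line, was at 0 to 3.01. Neither was tested.

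Replicate 3 of the DMSO group stood apart from the other DMSO libraries. For transcripts with under 36% G and C bases its median gene lay -0.85 (log2) from the median of the other 3 plates, and for those with 36 to 40% at -0.43. It had 789 genes more than 1 log2 unit under the other replicates, against 259 to 280 in the other DMSO libraries. DMSO replicate 2 leaned the other way, at 0.48 for the AT-rich class and -0.29 for transcripts over 60% GC, and the etoposide libraries stayed between -0.18 and 0.22. Counts of genes are therefore given also without DMSO replicate 3, and with each library's trend over GC content removed, 2 choices made after seeing the data. Over all genes the response itself ran with GC content, from a median log2 fold change of 0.75 in the 125 genes under 36% GC to -0.13 in the 2662 genes over 60%. What part of this belongs to the libraries and what part to the treatment was not tested.

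**Figure D1:**
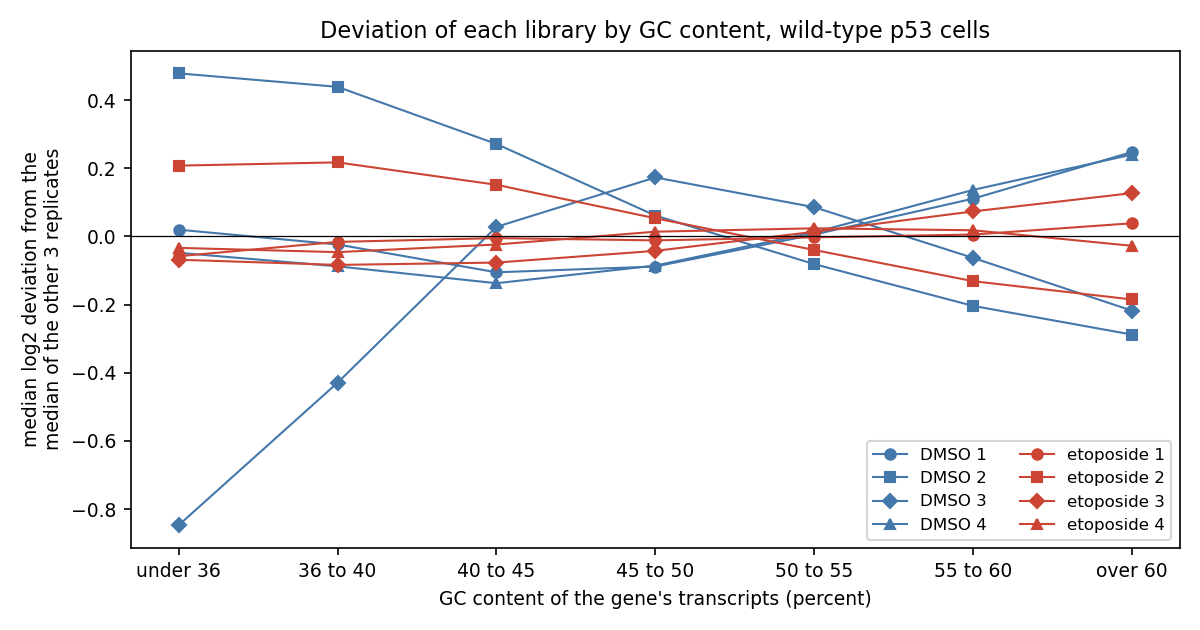
Median log2 deviation of each wild-type library from the median of the other 3 replicates of its group (y axis), in classes of transcript GC content in percent (x axis); blue lines are the DMSO libraries and red lines the etoposide libraries. DMSO replicate 3 falls to -0.85 in the AT-rich class, where DMSO replicate 2 is at 0.48.

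Etoposide changed transcripts across the genome in wild-type cells, with large rises among low genes and smaller falls among high ones. A gene is said to rise or fall where limma's adjusted p was under 0.05 and the fold change at least 1.5 on the log2(normalized count + 1) scale, which understates changes of low genes. By this rule 3203 genes rose (20.7% of those tested) and 2520 fell (16.3%), 36.9% in all. The groups did not overlap for 5414 of these 5723 genes, beside 53.2% of all tested genes. Large changes were mostly rises: 593 genes rose at least 4-fold and 139 fell as much, and 95 rose at least 16-fold against 6 that fell. The rising genes were low in DMSO, with a median of 96.7 normalized counts, and the falling genes were high, with a median of 656.2, beside 337.4 for all tested genes. Among genes with over 1000 normalized counts in DMSO, 1007 fell and 215 rose. Of the rising genes, 385 were under 10 normalized counts in every DMSO library, so that they entered the test only through the etoposide libraries.

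The split between rises and falls depended on the scaling. With the authors' size factors 56.0% of the calls were rises. Scaling to total counts gave 4597 rises and 1522 falls (75.1% rises) and moved the median gene from 0.02 to 0.25 (log2). Quantile normalization gave 2666 and 2887 (48.0%), and removal of the GC trend gave 2527 and 3085 (45%) with the median at -0.09. Without DMSO replicate 3 there were 3066 rises and 2573 falls (54.4%), of which 2893 and 2335 were among the calls of all 8 libraries. None of these settings turned a rise into a fall or a fall into a rise. Changes below are relative to the authors' scaling, and in bulk RNA a change in the share of cells of one state and a change of RNA per cell cannot be told apart.

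**Figure D2:**
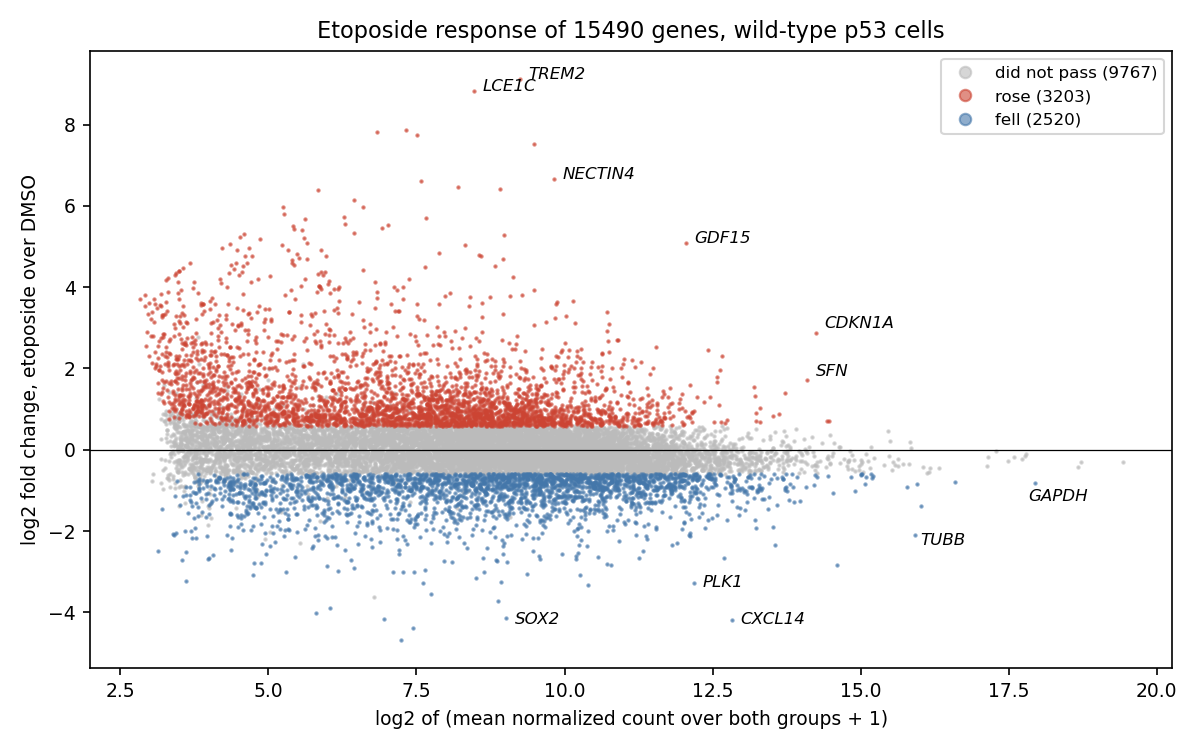
Log2 fold change of etoposide over DMSO (y axis) against log2 of the mean normalized count of both groups plus 1 (x axis) for the 15490 tested genes of wild-type cells; red points rose, blue points fell and grey points did not pass. Rises reach further than falls at low levels, and GAPDH and TUBB lie far to the right among the falling genes.

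The main p53 targets rose. CDKN1A (chr6:36676460-36687339, plus strand, GRCh38 with GENCODE 29, as for the other genes), which encodes p21, was at 5513, 3830.4, 4426 and 4833 normalized counts in the 4 DMSO libraries and 34534, 31183, 35918 and 34809 with etoposide, 7.33 times the DMSO mean. MDM2 (chr12:68808176-68850686, plus strand) was at 354, 388, 188 and 256 in DMSO, with DMSO replicate 3 the lowest, and at 1687, 1963, 1623 and 1813 with etoposide. Every etoposide library was above every DMSO library for both genes, and their log2 fold changes were 2.89 (SE 0.11) and 2.63 (SE 0.19). In KO cells CDKN1A rose by 1.54 (log2), and the difference between the responses was -1.35 (SE 0.14; adjusted p = 1.49e-06). Of the p53 relatives, TP63, a factor of stratified epithelia, rose from 2.66 ± 1.06 to 15 ± 3.11 normalized counts, and TP73 fell from 701 ± 122.5 to 355 ± 42.6.

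**Figure D3:**
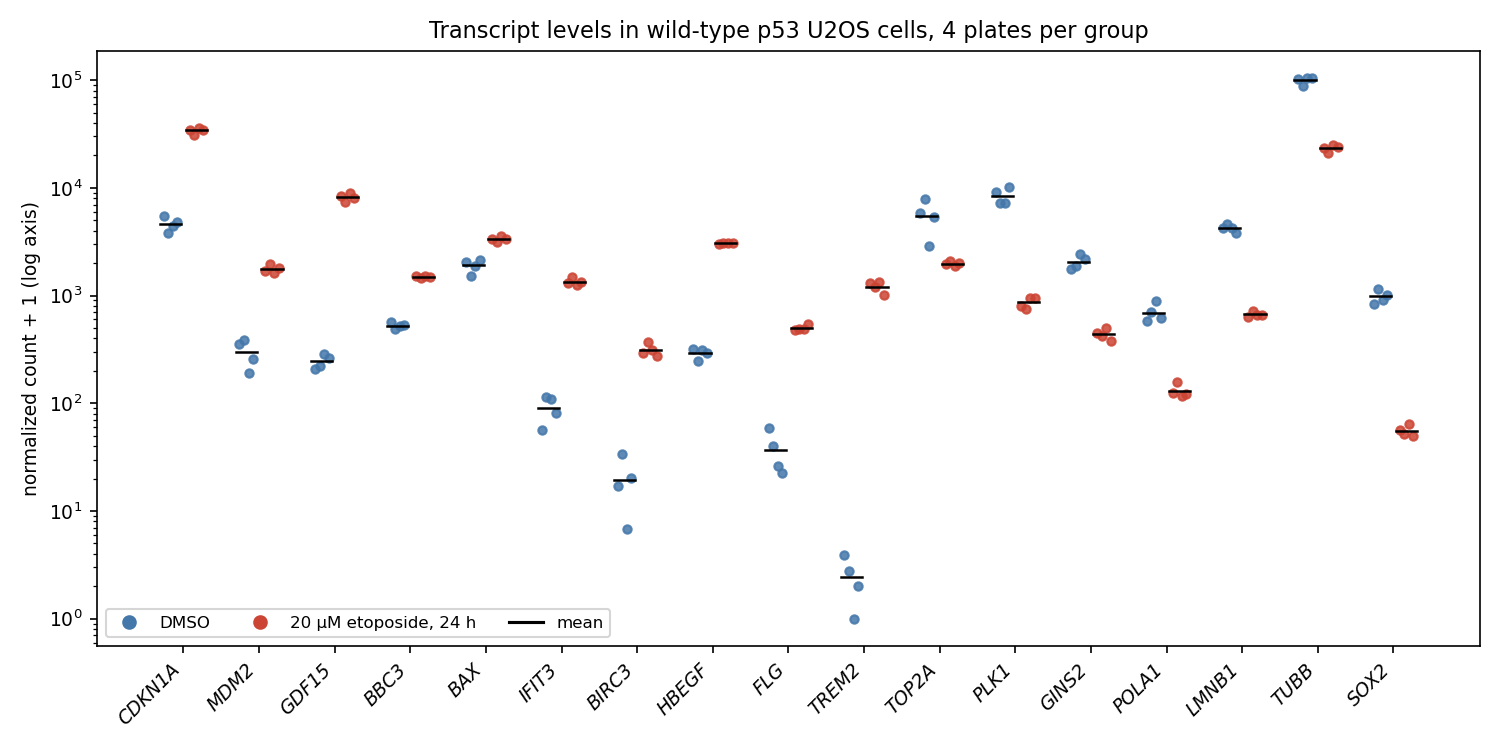
Normalized count plus 1 (log axis) of 17 genes in each of the 8 wild-type libraries; blue points are the 4 DMSO plates, red points the 4 etoposide plates, and bars the group means. The 2 groups do not overlap for any of these genes, from CDKN1A and MDM2 to TUBB and SOX2. The 17 genes were picked for display, and 53.2% of all tested genes also show no overlap.

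In 6 of the 7 lists of p53 targets, drawn up by role with earlier results of these data known, most tested members rose, and in the list of death receptors 3 of 10 did. Among the arrest genes 14 of 19 rose and 3 fell, with a median log2 fold change of 1.07, beside 0.02 over all tested genes. BTG2, an antiproliferative gene, rose from 889.6 ± 116 to 5109 ± 454. SFN, or 14-3-3 sigma, which keeps cyclin B complexes out of the nucleus, reached 26712 ± 1719 from 8138 ± 1263, the second largest gain in counts after CDKN1A. ZMAT3, an RNA-binding protein, rose by 2.15 (log2), and PLK3, a stress kinase, by 2.69. The 3 that fell were GTSE1, a mitotic gene that restrains p53, GAS6, a ligand of AXL, and CDKN1B, which encodes p27, at -1.45, -1.36 and -0.70. Of the 11 tested genes of negative feedback 7 rose and none fell, and 5 rose without DMSO replicate 3. PPM1D, the phosphatase that removes damage marks from p53, rose by 0.97 and TRIAP1 by 2.01, while MDM4, a second inhibitor of p53, was at 0.21 and did not pass.

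Most targets of the mitochondrial arm of apoptosis rose. In the mitochondrial list 10 of 16 tested members rose and 2 fell, with a median of 0.67, and 8 rose without DMSO replicate 3. BBC3, which encodes the BH3 protein PUMA, was at 563, 484, 520.4 and 537 in DMSO and 1517, 1446, 1509 and 1487 with etoposide, and BAX, which opens the outer mitochondrial membrane, at 2063, 1533, 1895 and 2143 and 3352, 3174, 3571 and 3379. Neither gene's groups overlapped, and the log2 fold changes were 1.5 (SE 0.08) and 0.83 (SE 0.11). PMAIP1, which encodes NOXA, rose by 2.48 in wild-type and by 2.19 in KO cells. In KO cells BBC3 and BAX were at -0.10 and -0.08, and the differences from wild-type were -1.60 (adjusted p = 5.37e-08) and -0.91 (adjusted p = 3.67e-05). Of the 10 tested genes of the death receptor arm 3 rose: FAS by 3.80, TNFRSF10B, the TRAIL receptor DR5, by 1.36, and the initiator caspase CASP10 by 1.22. FADD, CASP8 and CFLAR, which form the complex below these receptors, were at -0.07, 0.43 and 0.06 and did not pass.

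The wider BCL2 family moved both ways, with 8 of 19 tested members rising and 4 falling (42.1% and 21.1%, beside 20.7% and 16.3% of all tested genes). BCL2A1, an inhibitor of apoptosis best known from blood cells, rose from 2.64 ± 2.04 to 152 ± 24.1, and BIK, a BH3 protein of the endoplasmic reticulum, from 8.82 ± 2.04 to 99.4 ± 20.1. MCL1, another inhibitor, rose by 0.90, while BCL2L1, which encodes BCL-XL, was at 0.55 and missed the 1.5-fold limit. BMF, a BH3 protein tied to the cytoskeleton, fell from 1042, 776, 788 and 866 in DMSO to 68.0, 63.2, 65.3 and 62.6, which was the eighth largest fall by the naming rule. BCL2L11, which encodes BIM, and BAD, both BH3 proteins, fell by 0.69 and 1.12 (log2).

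Most targets in repair and metabolism rose as well. In the repair list 9 of 14 rose and 1 fell: RRM2B, the p53-induced subunit of ribonucleotide reductase, rose by 3.08, GADD45A by 3.12, and XPC and DDB2, which recognise ultraviolet lesions, by 1.0 and 0.83. FANCC, a Fanconi anaemia gene placed on this list, fell from 907 ± 50.2 to 251 ± 12.7. In the metabolism list 17 of 23 rose and 1 fell, with a median of 1.46, and 2 of these rises were of genes under 10 normalized counts in every DMSO library. FDXR, a mitochondrial ferredoxin reductase, was at 2397, 1857, 2156 and 2278 in DMSO and 11071, 9861, 12367 and 10046 with etoposide, all 4 above the DMSO range. In KO cells its log2 fold change was 0.15, a difference of -2.17 (adjusted p = 1.34e-08). GLS2, a liver-type glutaminase, rose from 6.86 ± 2.42 to 394 ± 34.7, and GPX1, a glutathione peroxidase, from 7574 ± 1278 to 19637 ± 1345. TIGAR, which lowers glycolytic flux, rose by 1.85, and SESN1 and SESN2, which restrain mTOR, by 2.71 and 1.58.

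In the list of secreted and surface targets 17 of 21 rose and 1 fell, with a median of 1.66. GDF15, a secreted stress hormone, was at 208, 221, 284 and 260.5 in DMSO and 8429, 7366, 8888 and 8137 with etoposide, and the difference of the KO response was -3.19 (adjusted p = 7.05e-08). TREM2 (chr6:41158506-41163186, minus strand), a lipid receptor known from myeloid cells, was at 2.86, 1.77, 0 and 1.02 in DMSO and 1296, 1201, 1323 and 1019.7 with etoposide, the largest rise by log2 fold change (9.13, SE 0.34, on 6 reads in all 4 DMSO libraries). Its rank over LCE1C, at 8.82 on 3 DMSO reads, turned without DMSO replicate 3, at 8.76 and 8.93. In the 8 KO libraries TREM2 was at 0 to 0.841. CX3CL1, a membrane-bound chemokine, fell from 1604 ± 261 to 569 ± 50.1. Over the 7 target lists together, 114 genes, the share of all normalized counts went from 0.593% ± 0.0345 to 1.43% ± 0.0423 (SD, n = 4). The exact permutation p was 0.0286 (two-sided), the smallest that 4 against 4 libraries can give, and 0.0457 adjusted over 8 measures. The lists were drawn up with earlier results of these data known, so this p is a description and not a test.

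**Figure D4:**
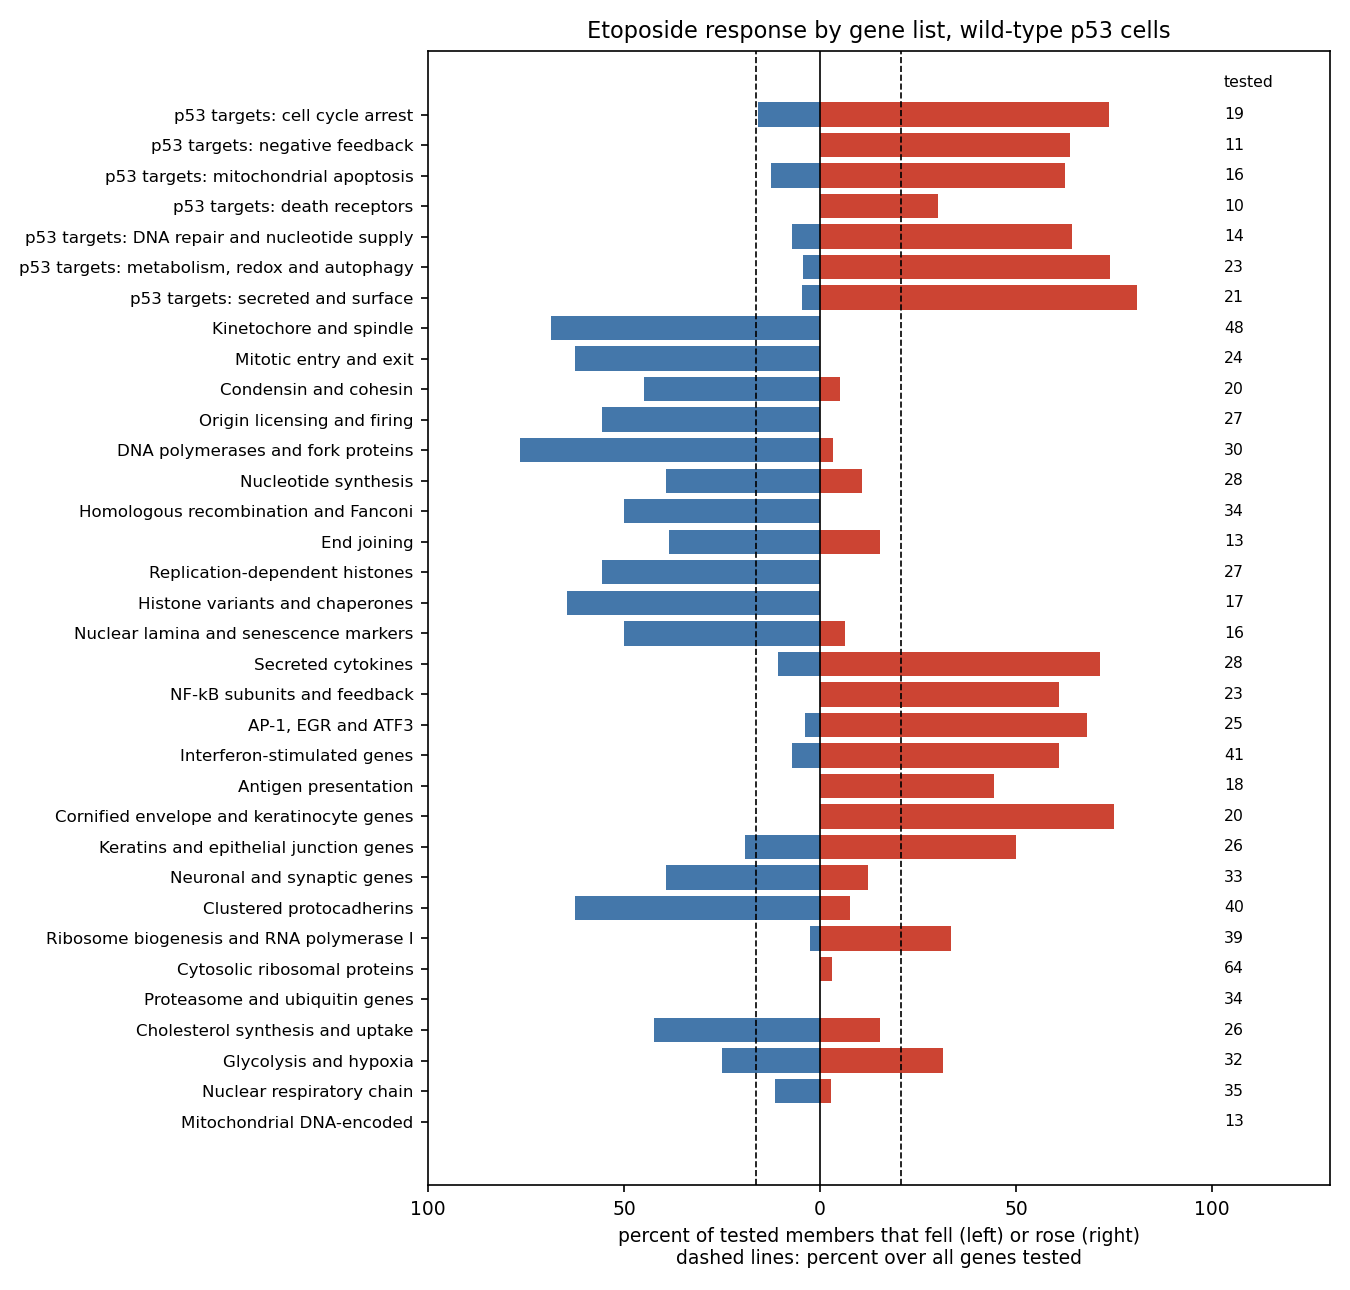
Percent of tested members that rose (red, right) or fell (blue, left) with etoposide in wild-type cells, by gene list; dashed lines mark the 20.7% and 16.3% of all tested genes, and the column on the right gives the number tested. The p53 target lists, cytokines and cornified envelope genes extend to the right and the lists of mitosis and replication to the left, while no proteasome or mtDNA-encoded gene passed. Of the 20 tested cornified envelope genes 10 were under 10 normalized counts in every DMSO library. These 10 entered the test only through the etoposide libraries and all rose, so that bar is only a description.

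Genes of mitosis fell together. Of 48 tested genes of the kinetochore and spindle 33 fell and none rose, with a median of -1.04, and 43 fell without DMSO replicate 3. PLK1 (chr16:23677656-23690367, plus strand), the kinase that drives entry into mitosis, was at 9223, 7299.8, 7223 and 10099.6 in DMSO and 805, 755, 954 and 945 with etoposide, so that the 2 groups were far apart (log2 fold change -3.28, SE 0.13; adjusted p = 1.27e-08). Among the motors and bundlers of the spindle, KIF4A fell by 2.62, NUSAP1 fell by 2.60 and TPX2 fell by 2.29 (log2). BIRC5, which encodes survivin of the chromosomal passenger complex, fell from 6488 ± 1102 to 1656 ± 49.0, and AURKB, the kinase of that complex, from 1919.8 ± 237 to 441 ± 63.0. CENPE, SGO2 and HMMR, with AT-rich transcripts, were at 0.11, 0.03 and -0.18 and did not pass, but fell without DMSO replicate 3, at -0.93, -0.72 and -0.88. Of 24 tested genes of mitotic entry and exit 15 fell and none rose. CDC20, which activates the anaphase-promoting complex, fell from 11494 ± 1239 to 1807 ± 203, and CCNB1 and CCNB2, the mitotic cyclins, fell by 1.66 and 1.98. CDK1, their kinase, was at 798 ± 201 in DMSO and 619 ± 80.8 with etoposide and did not pass (adjusted p = 0.104), but fell once the GC trend was removed, at -0.99. MYBL2 and FOXM1, the factors that switch on late cell cycle genes, fell from 20178 ± 3107 to 3966 ± 442 and from 12526 ± 2349 to 4433 ± 299.8.

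The promoters of these genes were read from RefSeq sequence (GRCh38.p14) as 300 bases, from 250 before to 50 after the start, for the 11752 tested genes that matched. The CHR letters TTTGAA, searched on both strands, were in 9.93% of all these promoters, in 27 of 39 of the kinetochore list and in 12 of 21 of the mitotic list. Kinetochore members with TTTGAA included PLK1 and KIF4A, which fell, and HMMR and NUF2, which did not pass. CCAAT, which binds the factor NF-Y, was in 36% of all and in 30 of the 39. Both together were in 4.13% of all and in 21 of the 39, and the 2 strings can overlap only at their end letters. Of genes that fell at least 4-fold, 24.0% had TTTGAA. These are matches of letters, not measured sites. The 250 bases before the PLK1 start (chr16:23678639-23678888, plus strand; RefSeq and GENCODE starts can differ) are shown because PLK1 fell most in the list; capitals mark TTTGAA, 29 bases before the start.
PLK1 promoter: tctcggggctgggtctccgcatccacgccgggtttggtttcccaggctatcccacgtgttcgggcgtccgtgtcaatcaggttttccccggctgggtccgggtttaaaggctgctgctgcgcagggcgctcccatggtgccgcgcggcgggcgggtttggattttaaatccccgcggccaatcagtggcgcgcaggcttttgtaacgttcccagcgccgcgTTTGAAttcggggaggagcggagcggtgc

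Genes of DNA replication fell as well. In the list of origin licensing and firing 15 of 27 tested members fell and none rose, with a median of -0.66. GINS2 (chr16:85676198-85690073, minus strand), a subunit of the replicative helicase, was at 1759, 1862, 2407 and 2167 in DMSO and 446, 424, 503 and 377 with etoposide, with no overlap. MCM5, MCM3 and MCM7, subunits of the same helicase, fell by 2.04, 1.91 and 1.74 (log2). CDC6, which loads the helicase, was at -0.24 and did not pass. In the list of polymerases and fork proteins 23 of 30 fell and 1 rose, with a median of -0.90. POLA1 (chrX:24693919-24996986, plus strand), the catalytic subunit of the priming polymerase, was at 577, 698, 890.2 and 613 in DMSO and 123, 157, 115 and 120.5 with etoposide, and its primase partners PRIM2 and PRIM1 fell by 2.12 and 1.52. The member that rose was PCNA, the sliding clamp and a known p53 target, from 3268 ± 173 to 5054 ± 182, a rise that did not pass with the GC trend removed. Nucleotide synthesis followed in part, with 11 of 28 falling and 3 rising: TK1, thymidine kinase, fell from 11802 ± 1418 to 3909 ± 489, and RRM1 and RRM2, the replicative ribonucleotide reductase, fell by 1.19 and 1.14, while RRM2B rose.

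E2F sites were searched as TTTGGCGC, TTTCGCGC, TTTCCCGC or TTTGCCGC on both strands, strings that can overlap TTTGAA or CCAAT only in part. They were in 5.06% of all promoters, in 11 of 22 of the origin list and in 10 of 28 of the polymerase list. Members with a match included GINS2 and POLA1, which fell, CDC6, which did not pass, and PCNA, which rose. Among falling genes 7.08% had one, and among rising genes 2.85%. The 250 bases before the starts of GINS2 (chr16:85688955-85689204, minus strand) and POLA1 (chrX:24693668-24693917, plus strand), the members of each list that fell most, are shown with the match in capitals, 31 and 137 bases before the start.
GINS2 promoter: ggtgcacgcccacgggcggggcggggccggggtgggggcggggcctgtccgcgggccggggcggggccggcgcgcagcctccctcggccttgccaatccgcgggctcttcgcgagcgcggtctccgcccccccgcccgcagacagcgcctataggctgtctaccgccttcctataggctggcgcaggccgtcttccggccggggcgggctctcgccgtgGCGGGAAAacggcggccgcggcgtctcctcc
POLA1 promoter: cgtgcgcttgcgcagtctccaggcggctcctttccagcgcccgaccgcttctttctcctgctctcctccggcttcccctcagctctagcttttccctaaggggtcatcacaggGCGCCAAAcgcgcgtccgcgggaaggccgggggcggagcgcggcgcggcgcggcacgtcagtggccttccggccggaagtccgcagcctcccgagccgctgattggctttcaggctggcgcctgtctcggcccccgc

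Topoisomerase and repair genes moved in different directions. TOP2A, the proliferative form of the enzyme that etoposide traps, was at 5829, 7931, 2887 and 5308 in DMSO, lowest in replicate 3, and at 1952, 2098, 1880.3 and 1996 with etoposide, with no overlap. TOP2B, the form of resting cells, was at 1126 ± 360.3 and 1169.7 ± 93.4 and did not pass. TDP2, which removes topoisomerase II from DNA ends, was at 0.49 and did not pass, and its SUMO ligase partner ZNF451 rose by 1.11. The drug exporters ABCB1 and ABCG2 rose from 57.7 ± 15.1 to 196 ± 24.0 and from 23.1 ± 4.54 to 79.1 ± 8.46. In the list of homologous recombination and Fanconi genes 17 of 34 fell and none rose, with a median of -0.58. FANCD2 fell by 1.12 and BRCA1, whose groups overlapped, fell by 0.75 (log2), while BRCA2 and PALB2 were at -0.15 and 0.44 and did not pass. In end joining XRCC5, XRCC6 and PRKDC, which together form the DNA-PK complex, fell by 0.91, 0.86 and 1.2. LIG4, the ligase of that pathway, rose from 53.9 ± 28.3 to 142 ± 15.7. Of the damage sensors and mediators 11 of 28 fell and 3 rose, the latter being RAD50, NBN and RNF168, and with the GC trend removed 13 fell and none rose. The call of NBN was lost without any 1 of 7 libraries (DMSO replicate 2 was the exception) and that of RAD50 without DMSO replicate 4 or any 1 etoposide library, and that of RNF168 without DMSO replicate 4. ATM and ATR, the kinases that start the response, were at 0.34 and 0.28 and did not pass.

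Among 16 tested nuclear lamina and senescence genes 8 fell and 1 rose. LMNB1, lamin B1, whose loss is a known mark of senescence, was at 4206, 4651, 4215 and 3837 in DMSO and 632, 726, 660.2 and 659 with etoposide, and the groups were far apart. EZH2, the Polycomb methyltransferase, fell from 413 ± 61.6 to 129 ± 6.53, and CBX5, which encodes HP1 alpha, from 3975 ± 466 to 1459 ± 75.8. The member that rose was SIRT1, a deacetylase, from 334 ± 65.2 to 718 ± 49.9. HMGA1 and HMGA2, which accumulate on senescent chromatin, were at -0.52 and 0.04 and did not pass. Of 17 tested histone variants and chaperones 11 fell and none rose, H2AFX, the variant phosphorylated at breaks, from 11692 ± 1914 to 4291 ± 515. Of the 62 replication-dependent histone genes 27 were tested and 15 fell, of which HIST1H4C and HIST2H2AC fell by 2.10 and 2.37. Such transcripts mostly lack a poly-A tail and are captured poorly by these libraries, and near-identical copies such as HIST2H3A and HIST2H3C, both listed at -0.69, cannot be told apart; their call was lost without DMSO replicate 1 or 4 or etoposide replicate 2 or 3.

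Most secreted cytokines rose. Among 28 tested secreted cytokines 20 rose and 3 fell, with a median of 1.80, and 4 of these rises were of genes under 10 normalized counts in every DMSO library. The ligands of the EGF receptor were among the highest: HBEGF was at 315, 247, 312 and 291 in DMSO and 3018, 3059.6, 3087 and 3055 with etoposide, AREG rose from 25.4 ± 4.31 to 726 ± 56.0 and EREG from 36.6 ± 15.7 to 249.5 ± 52.3. IL11, a cytokine of the IL6 family, rose from 193 ± 27.7 to 1898 ± 60.4, and IL1A and IL6 reached 53.3 ± 11.8 and 41.8 ± 5.62 from 5.17 ± 1.91 and 4.80 ± 2.09. BMP4, a bone morphogenetic protein, fell from 1395 ± 75.2 to 455 ± 46.2. Chemokines split, with 6 of 14 rising and 3 falling (42.9% and 21.4%, beside 20.7% and 16.3% of all tested genes). Of the rising chemokines 2 were under 10 normalized counts in every DMSO library. CXCL14, the most abundant of them, was at 15138, 13039.6, 13642 and 13292 in DMSO and 727, 722, 773 and 790.3 with etoposide, and CCL24, which attracts eosinophils, was at 325, 322, 376 and 297 and 15.1, 15.1, 14.8 and 14.5; neither overlapped. CXCL8, which attracts neutrophils, varied widely in DMSO, at 4.77, 136, 40.6 and 56.2, with 197, 148, 162 and 151 under etoposide, and it no longer passed once the GC trend was removed or without etoposide replicate 1. Of 21 tested metalloproteinases, inhibitors and plasminogen genes 9 rose and none fell, led by MMP3, stromelysin 1, from 19.8 ± 11.4 to 617 ± 32.4.

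Feedback genes of NF-kB and immediate early factors rose alongside. In the NF-kB list 14 of 23 tested members rose and none fell, with a median of 0.93. BIRC3 (chr11:102317450-102339403, plus strand), which encodes the ubiquitin ligase cIAP2, was at 16.2, 32.7, 5.79 and 19.4 in DMSO, lowest in replicate 3, and at 289.7, 367, 309 and 276 with etoposide. TRAF1 rose by 2.79, TNFAIP3, the deubiquitinase A20, by 2.22 and RELB by 1.28, while RELA was at 0.10 and did not pass. In the list of AP-1, EGR and ATF3 17 of 25 rose and 1 fell, with a median of 1.15. ATF3, a stress repressor, rose from 139.6 ± 16.5 to 1739 ± 68.1, FOSB from 26.5 ± 3.81 to 743 ± 75.7 and NR4A1 from 526 ± 118 to 2666 ± 254, and JUND fell from 5349 ± 818 to 3107 ± 322, which did not pass under total-count or quantile scaling. Of the ERK feedback genes DUSP1 rose by 2.0 and DUSP6 fell by 1.06 (log2). In KO cells 17 of 27 tested cytokines, 14 of 23 NF-kB genes and 18 of 25 genes of the AP-1 list rose. Of all 15208 genes tested in KO cells 18.4% rose. The differences between the 2 responses passed in 8 cytokines (less in KO) and 5 (more), in 3 and none of the NF-kB list, and in 4 and 1 of the AP-1 list, beside 10.6% less and 9.18% more over the 16093 genes of that test.

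Most tested interferon-stimulated genes rose. IFNB1, which encodes interferon beta, had 0 reads in all 8 wild-type libraries, which allows up to 3 reads in each. Of 41 tested interferon-stimulated genes 25 rose and 3 fell, with a median of 1.02. IFIT3 (chr10:89327894-89340971, plus strand), which binds other IFIT proteins on viral RNA, was at 55.3, 113, 109 and 80.7 in DMSO and 1303, 1477, 1249.8 and 1325 with etoposide. IFIT2 rose from 59.5 ± 25.8 to 1062 ± 70.8, ISG15, a ubiquitin-like modifier, from 509 ± 36.4 to 3339 ± 411, and OASL from 367 ± 78.5 to 1753 ± 117. MX1, also a classic member, was at -0.27 and did not pass, and IFITM1, GBP2 and BST2 fell, the last not without DMSO replicate 3. In KO cells 26 of the 41 rose, beside 18.4% of the 15208 genes tested there. The difference between the responses passed as lower in KO for 10 of the 41 and as higher for 6, beside 10.6% and 9.18% over all genes. For IFIT3 and ISG15, among the 10, it was -2.35 (adjusted p = 1.32e-06) and -2.30 (adjusted p = 7.02e-09). Among sensors of nucleic acids TLR3, a known p53 target, rose from 13.6 ± 8.13 to 129.5 ± 11.4, and APOBEC3C, a cytidine deaminase, from 2318 ± 159 to 5556 ± 518. CD274, which encodes PD-L1, rose from 21.2 ± 7.46 to 173 ± 20.9, TAP1, the peptide transporter, from 422 ± 60.4 to 1397 ± 146, and ULBP2, a ligand of the NKG2D receptor, from 135 ± 16.5 to 688 ± 4.72.

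The interferon response element was searched on both strands as GAAA, any 2 bases and GAAA, and was in 2.75% of all promoters and in 19 of 32 of the interferon-stimulated genes. Members with a match included IFIT3 and ISG15, which rose, MX1, which did not pass, and IFITM1 and BST2, which fell. The NF-kB letters GGG, any 2 bases and TTTCC were in 2.04% of all promoters and in 6 of 20 of the NF-kB list; the 2 patterns can overlap in their TTTC letters. The 250 bases before the starts of IFIT3 (chr10:89327747-89327996, plus strand) and BIRC3 (chr11:102317234-102317483, plus strand) are shown as members that rose strongly. Capitals mark the matches, 156 and 122 bases before the IFIT3 start and 199 before the BIRC3 start.
IFIT3 promoter: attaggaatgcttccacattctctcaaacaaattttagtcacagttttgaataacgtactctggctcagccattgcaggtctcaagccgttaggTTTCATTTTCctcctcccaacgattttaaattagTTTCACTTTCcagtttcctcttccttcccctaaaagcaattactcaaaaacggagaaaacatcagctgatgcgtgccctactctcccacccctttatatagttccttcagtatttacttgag
BIRC3 promoter: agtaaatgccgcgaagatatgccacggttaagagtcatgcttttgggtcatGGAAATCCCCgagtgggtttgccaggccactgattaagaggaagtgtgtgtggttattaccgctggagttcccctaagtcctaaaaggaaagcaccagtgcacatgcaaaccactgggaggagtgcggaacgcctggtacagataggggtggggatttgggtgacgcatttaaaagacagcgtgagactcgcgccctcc
The AP-1 letters TGANTCA were in 4.95% of all promoters, in 8.05% of those of rising genes and in 11.6% of those that rose at least 4-fold. TATAAA, the TATA box, was in 6.12% of all, 10.4% of rising and 17.6% of the rises of at least 4-fold, and in 7 of 20 of the cytokine list.

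Genes of the skin's outer layers rose in these bone tumour cells. Of 42 listed cornified envelope and keratinocyte genes 20 were tested; 15 rose, 10 of them from under 10 normalized counts in every DMSO library, so the count is only a description. FLG, filaggrin, was at 58.1, 38.9, 25.1 and 21.4 in DMSO and 476, 484, 487 and 543 with etoposide, and in KO cells its log2 fold change was 0.55 (difference -3.31; adjusted p = 1.25e-06). The late cornified envelope genes lie together on chromosome 1: LCE1C reached 707 ± 68.3 from 3 reads in all DMSO libraries, LCE1F 359.5 ± 24.4, LCE1B 170.0 ± 18.3 and LCE1E 150.1 ± 13.8 normalized counts. RNASE7, an antimicrobial ribonuclease of skin, reached 319 ± 7.99 from 3 DMSO reads. LGALS7B, galectin 7, had 0 reads in the 4 DMSO libraries and 226 ± 37.9 with etoposide, at least 78.8-fold higher than the floor of 3 reads per library, and its near-identical copy LGALS7 was at 111 ± 30.9, a split that the counting may not resolve. The members of the LCE1 cluster are also close copies. IVL, involucrin, reached 55.5 ± 8.17 from 3 DMSO reads, and PADI4, which converts arginine to citrulline, rose from 4.58 ± 1.33 to 252 ± 30.1. LOR, loricrin, was at 87.0 ± 13.4 and 83.8 ± 9.66 and did not pass.

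Other epithelial genes rose in part. In the list of keratins and junction genes 13 of 26 tested members rose and 5 fell (50% and 19.2%, beside 20.7% and 16.3% of all tested genes). Of these rises 4 were of genes under 10 normalized counts in every DMSO library. NECTIN4, an adhesion molecule of epithelia, was at 25.7, 15, 14.5 and 14.3 in DMSO and 1742, 1878, 1740.1 and 1808 with etoposide, and CEACAM1, another adhesion molecule, at 3.81, 8.85, 5.79 and 10.2 and 1420.2, 1383, 1481 and 1412. GRHL3, a factor of the skin barrier, rose from 3.85 ± 2.95 to 376 ± 15.1, and COL17A1, a collagen of hemidesmosomes, from 24.4 ± 4.21 to 984 ± 27.3. KRT17, a keratin of injured skin, was at 18682, 14396, 16959 and 19281 in DMSO and 28478, 26645, 31546 and 26059 with etoposide in wild-type cells and fell by 0.99 (log2) in KO cells (difference -1.69; adjusted p = 5.0e-07). KRT81 rose from 4855 ± 808 to 14036 ± 350.3 while its close copy KRT86 fell, values between which the counting may split reads. KRT34, a hair keratin, rose from 9.51 ± 9.10 to 579 ± 52.8 and ESM1, a secreted proteoglycan of endothelium, from 10.4 ± 3.35 to 945 ± 129.5. SIGLEC14, a lectin of myeloid cells that is near-identical in part to SIGLEC5, rose from 2.69 ± 2.42 to 189 ± 28.2, and the factor LHX3 and the receptor subunit GABRQ reached 73.3 ± 2.19 and 73.9 ± 11.9 from 1 and 2 DMSO reads. KRT14, a keratin of basal cells, fell from 835 ± 96.3 to 159.9 ± 16.7. The summed level of the 7 epithelial markers fell from a range of 794.6 to 1028 to 235.2 to 272.9, and most of that sum was KRT14, while EPCAM was at 37.7 ± 5.82 and 22.1 ± 8.01 in overlapping groups, a fall that did not pass without etoposide replicate 3. As a set these markers were split: of the 5 tested 2 rose and 2 fell. Of the 2 rises, 1 was from under 10 normalized counts in every DMSO library. KRT19, not tested, had 1 read in the DMSO libraries and 41 with etoposide. The 9 blood markers summed to 116.8 to 161.1 in DMSO and 488.6 to 535.9 with etoposide, of which CD68, a lysosomal protein, rose from 129 ± 17.8 to 468 ± 14.4, while CD3E and HBB were at or under 5.78 and AIF1 at 0 in every library. SPI1, the only other blood marker tested, was at 0.68 (log2) and did not pass. The 6 endothelial markers summed to 123.6 to 145.8 and 175.4 to 208.7. Of these 6, all tested, 4 rose and none fell, and 2 of the rises were from under 10 normalized counts in every DMSO library. The part of other cells in these results was not tested. The defining blood genes PTPRC and CD14 did not pass the filter and reached at most 15.4 and 8.67.

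A p53 type of match was searched on both strands as CATG preceded, after any 6 bases, by a second CATG or by CAAG. It was rare in the promoter windows: 72 of 11752 (0.613%) held one, of which 20 rose and 10 fell. Of all 11752 promoters 2385 were of rising genes and 1908 of falling genes, so these counts are only a description. Sites farther from the start, where many p53 elements are known to lie, were not searched. Among genes that rose at least 4-fold 8 of 414 held a match. LCE1E and BCL2A1, from the skin and BCL2 lists, were among them, and the 250 bases before their starts (chr1:152786007-152786256, plus strand, and chr15:79971197-79971446, minus strand) are shown with the match in capitals, 85 and 35 bases before the start.
LCE1E promoter: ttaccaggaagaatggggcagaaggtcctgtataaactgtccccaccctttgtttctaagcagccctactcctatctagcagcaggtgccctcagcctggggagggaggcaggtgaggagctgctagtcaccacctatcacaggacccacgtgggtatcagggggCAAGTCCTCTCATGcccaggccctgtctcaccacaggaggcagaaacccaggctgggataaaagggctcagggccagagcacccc
BCL2A1 promoter: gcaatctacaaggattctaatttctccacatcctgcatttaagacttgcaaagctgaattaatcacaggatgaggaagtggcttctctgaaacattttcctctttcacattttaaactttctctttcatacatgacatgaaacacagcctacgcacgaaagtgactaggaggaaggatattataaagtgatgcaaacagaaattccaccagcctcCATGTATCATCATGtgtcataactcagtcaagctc

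The 15 largest falls by the naming rule included CCL24, CXCL14, BMF and PLK1, described above. MAP2K6, a kinase that activates p38, was at 214, 309.7, 356 and 272 in DMSO and 9.24, 10.0, 16.5 and 6.75 with etoposide, the largest of them (log2 fold change -4.67, SE 0.25). SOX2, a factor of stem and neural cells, was at 839, 1161, 908 and 1019 and 55.4, 51.2, 62.7 and 48.2, with no overlap. Among 16 tested SOX and stem cell factors 6 fell and 2 rose, the latter CD44, a hyaluronan receptor, from 2785 ± 209 to 6869 ± 321 and ALDH1A3 from 6.13 ± 2.90 to 58.2 ± 9.39. SOSTDC1, an antagonist of BMP and WNT, fell from 234 ± 79.0 to 11.7 ± 2.66, and RNF43, a ubiquitin ligase that removes WNT receptors, from 878 ± 97.5 to 92.3 ± 22.2. The WNT list was mixed, with 12 of 41 rising and 10 falling (29.3% and 24.4%, beside 20.7% and 16.3% of all tested genes). FZD2 fell by 2.0 (log2), and WNT9A and FZD5 rose by 2.24 and 1.60. SAPCD2 and PSRC1, both tied to the spindle, fell from 2462 ± 160.4 to 244 ± 32.1 and from 2199 ± 251 to 258 ± 19.3, and SLC14A1, a urea transporter, from 397 ± 86.0 to 32.2 ± 3.08. The GABA receptor subunit GABRR1 fell from 104 ± 27.5 to 5.46 ± 1.69 and KIAA1210 from 121 ± 15.5 to 8.13 ± 5.52. In the Notch list NOTCH1 and JAG1, a receptor and a ligand, rose from 690.2 ± 199 to 1412 ± 89.3 and from 186 ± 42.6 to 620.3 ± 25.4. Among growth factor genes, EGFR and MET rose from 494 ± 63.2 to 1284 ± 100.1 and from 459 ± 67.3 to 1006 ± 47.0, while PDGFRA and PDGFRB fell from 703 ± 108 to 217 ± 15 and from 1854 ± 303 to 902 ± 28.9.

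Falls outnumbered rises among neuronal genes and clustered protocadherins. Of 33 tested neuronal and synaptic genes 13 fell and 4 rose, beside 16.3% and 20.7% of all tested genes. In KO cells 19 of 33 fell and 2 rose, beside 15.9% and 18.4% of the genes tested there. NCAM1, an adhesion molecule, fell from 1701 ± 21.0 to 289.6 ± 33.8. Of 40 tested clustered protocadherins 25 fell and 3 rose, PCDHGC5 among the latter from 175 ± 30.9 to 644 ± 43.0; these genes share exons, so that reads may be split between them.

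Among genes that span long stretches of DNA, falls outnumbered rises. Among 392 tested genes over 400 kb long 34.9% fell and 16.3% rose, with a median of -0.26, beside 16.3% and 20.7% of all tested genes. The falling share was lowest among 3986 genes of 20 to 50 kb, of which 12.4% fell and 22.3% rose. It was higher again among 1617 genes up to 5 kb, of which 18.9% fell and 19.7% rose. PRKCA, a protein kinase C of 508.1 kb, was at 3632, 3169, 3039.5 and 2929 in DMSO and 650.0, 686, 681 and 687 with etoposide, and ROR1, a receptor kinase of 407.5 kb, at 689, 910.5, 322 and 705 and 73.1, 68.2, 63.6 and 68.4; neither overlapped. Some long genes went the other way: SUGCT, an enzyme of glutarate metabolism that spans 725.8 kb, rose from 151 ± 4.41 to 1286 ± 64.7, and OPCML, a neural adhesion gene of 1117.5 kb, from 13.0 ± 3.50 to 170.0 ± 14.2. In KO cells 55.8% of 385 genes over 400 kb fell and 10.1% rose, with a median of -0.78, beside 15.9% and 18.4% of all genes tested there. The difference between the responses passed as lower in KO for 35.4% of 412 such genes and as higher for 3.40%, beside 10.6% and 9.18% over all genes. Among genes with a mean of at least 100 normalized counts 44.3% of those over 400 kb fell and 9.50% rose, and 40.3% fell with the GC trend removed.

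**Figure D5:**
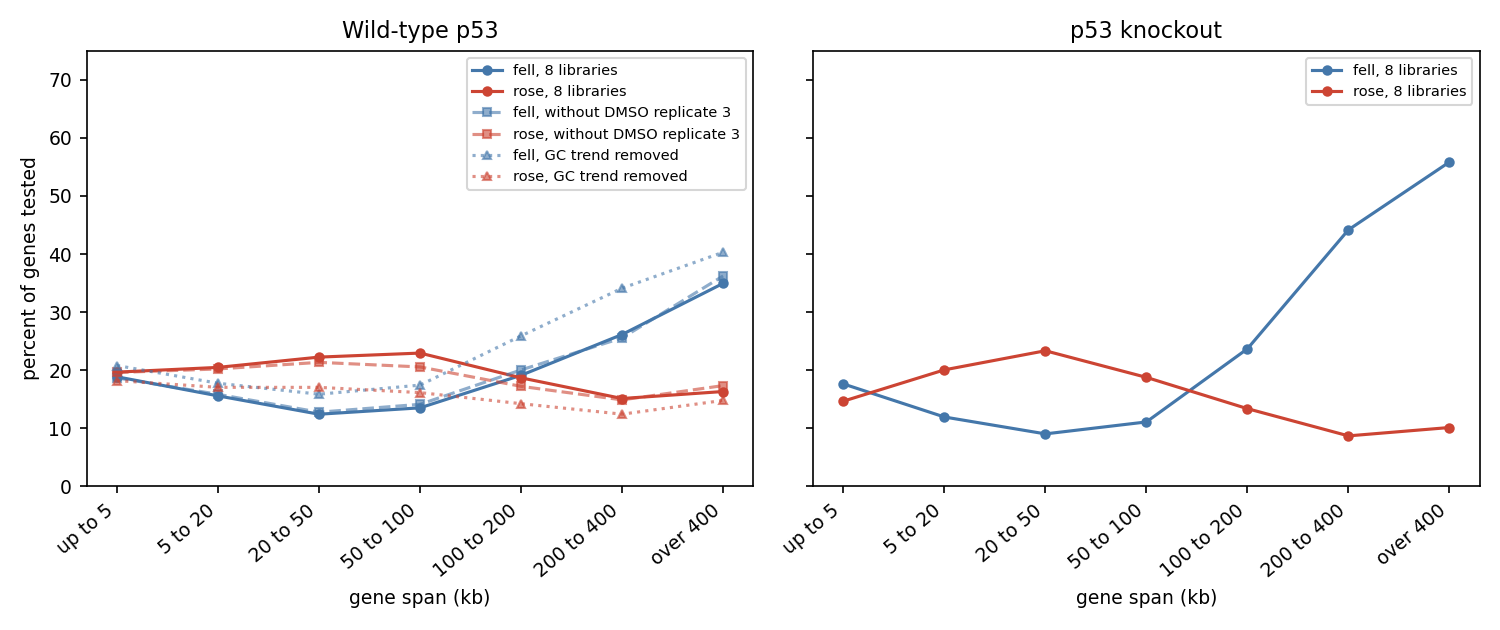
Percent of tested genes that fell (blue) or rose (red) with etoposide in classes of gene span in kb (x axis), in wild-type cells on the left and KO cells on the right; dashed and dotted lines on the left leave out DMSO replicate 3 or remove the GC trend. The falling share climbs from 12.4% at 20 to 50 kb to 34.9% over 400 kb in wild-type cells and reaches 55.8% in KO cells. In genes up to 5 kb it is 18.9% in wild-type cells.

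The largest losses in counts came from genes of the cytoskeleton and of glycolysis. TUBB, beta tubulin, was at 103608, 87548, 104167 and 105216 in DMSO and 23422, 21196, 24953 and 24033 with etoposide, with no overlap and a DMSO mean 4.28 times that with etoposide. TUBA1B fell by 1.38 and TUBA1A fell by 1.27 (log2), while TUBB6 and TUBG1 were at 0.57 and -0.26 and did not pass. Tubulin genes resemble each other, so that reads may be split between them. All 20 tubulin genes together took 0.864% ± 0.0408 of the counts in DMSO and 0.514% ± 0.0186 with etoposide (SD, n = 4). The exact permutation p was 0.0286 (two-sided) and 0.0457 adjusted over 8 measures. This group was added after its values were seen, so its p is a description and not a test. GAPDH went from 320188 ± 44355 to 182405 ± 20642, PKM from 125881 ± 15102 to 71899 ± 5383 and ENO1 from 74212 ± 9867 to 39118 ± 3769, 3 of the 8 falls among 32 tested glycolysis and hypoxia genes. Another 10 of that list rose, with HK2, the inducible hexokinase, going from 209.8 ± 33.8 to 549 ± 45.4 and EPAS1, which encodes HIF-2 alpha, from 426 ± 34.4 to 1619 ± 26.0. In this list 25% fell and 31.25% rose, beside 16.3% and 20.7% of all tested genes. With quantile normalization 3 of the list fell and with total-count scaling 3, and neither GAPDH nor PKM passed under either.

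The other large losses were VIM, vimentin, from 81038 ± 8204 to 45276 ± 1912, DHRS2, a mitochondrial reductase, from 43518 ± 3639 to 6073 ± 260.3, and PTMS, HSPB1 and LGALS1, which fell by 1.03, 0.85 and 0.70 (log2). LGALS1 did not pass under total-count or quantile scaling, and VIM and HSPB1 did not under quantile scaling. Among the large gains, CTSB, a lysosomal protease, rose from 16837 ± 2066 to 27315 ± 728, FLNC, filamin C, from 5533 ± 1444 to 13525 ± 884, and ARC, an immediate early gene of neurons, from 1691 ± 178 to 9331 ± 865.

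Genes of lipid synthesis fell in part. Of 26 tested cholesterol genes 11 fell and 4 rose: SREBF1, the factor of lipid synthesis, fell from 5964 ± 1542 to 2191 ± 271 and MVK, mevalonate kinase, from 1112 ± 89.8 to 362 ± 38.1. Of 30 fatty acid genes 9 fell and 4 rose (30% and 13.3%, beside 16.3% and 20.7% of all tested genes). FADS2 and SCD, which desaturate fatty acids, fell by 1.90 and 1.28 (log2). PHGDH, the first enzyme of serine synthesis, fell from 7238 ± 903 to 1647 ± 141. FGF21, a hormone of the stress response, fell from 26.3 ± 8.57 to 3.20 ± 0.892 in wild-type cells and rose by 1.13 in KO cells, a difference of 3.81 (adjusted p = 4.52e-07). In 32 tested genes of the integrated stress response 8 rose and 7 fell (25% and 21.9%, beside 20.7% and 16.3% of all tested genes). ATF4, the factor of this response, was at -0.16 and did not pass. Of 40 lysosomal genes 10 rose (25%) and 2 fell (5%). FUCA1, a fucosidase, rose from 419 ± 34.5 to 2022 ± 84.9.

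Few genes of the proteasome, the ribosome and the respiratory chain passed. None of 34 proteasome and ubiquitin genes and none of 13 mtDNA-encoded genes passed, 2 of 64 ribosomal protein genes rose, and 4 of 35 nuclear respiratory chain genes fell and 1 rose. Under total-count scaling 3 proteasome genes rose and with the GC trend removed 3 fell, beside medians over all genes of 0.25 and -0.09. Of the mtDNA-encoded genes 1 rose under quantile normalization and 1 fell with the GC trend removed. The 13 mtDNA-encoded genes took 12.8% ± 2.15 of the counts in DMSO and 12.5% ± 1.94 with etoposide (exact permutation p = 0.83, two-sided, n = 4), and ribosomal protein genes 5.77% ± 0.661 and 5.52% ± 0.0594 (p = 0.6 by the same exact test, n = 4). Of 39 tested genes of ribosome biogenesis 13 rose and 1 fell (33.3% and 2.56%, beside 20.7% and 16.3% of all tested genes). DDX21, a helicase of the nucleolus, rose from 1214 ± 318 to 3199 ± 277, and FBL, fibrillarin, fell from 2895 ± 485 to 1690.0 ± 109.8. Among splicing factors 12 of 35 fell and 2 rose, the latter the kinases CLK1 and CLK4, which did not pass with the GC trend removed, and 6 fell with quantile normalization. Of the transcription elongation genes HEXIM1, which holds the kinase P-TEFb inactive, rose from 1169 ± 123 to 2388 ± 147 and HEXIM2 fell from 392 ± 76.1 to 116 ± 12.9.

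More genes were read after etoposide. Between 19545 and 19990 gene symbols had a read in the DMSO libraries and 22118 to 22532 with etoposide, although the etoposide libraries were the shallower on the whole. At 10 normalized counts or more the numbers were 14787 to 14928 and 15597 to 15711 (exact permutation p = 0.0286, two-sided, n = 4; 0.0457 adjusted over 8 measures). There were 455 genes with 0 reads in all DMSO libraries and a read in every etoposide library, 339 of them protein-coding, and 6 genes the other way. Most stayed low: 15 reached a mean of 10 normalized counts and 1, LGALS7B, reached 50.

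Many of these genes also changed in cells without p53. Of the 3203 genes that rose in wild-type cells 1680 rose in KO cells (18.4% of the 15208 genes tested there rose), 1166 did not pass, 39 fell and 318 were not tested. The difference between the responses, tested in 1 fit of the 16 libraries, passed as lower in KO for 888 of the 3203 and higher for 71. Of the 2520 genes that fell, 1270 fell in KO cells (15.9% of the 15208 genes tested there fell). Another 1150 did not pass, 63 rose and 37 were not tested. For these 2520 genes the difference passed as higher in KO for 820 and lower for 131. Since these shares are read among genes chosen by the wild-type test, they are given as counts only. By list, the difference passed as higher in KO for 37 of 48 kinetochore genes, 24 of 27 origin genes, 25 of 30 polymerase and fork genes and 21 of 34 recombination genes, and as lower for 1 polymerase and fork gene. Over all 16093 genes of that test it passed as higher for 9.18% and as lower for 10.6%. PLK1 fell by 3.28 in wild-type cells and fell by 1.93 in KO cells (difference 1.35; adjusted p = 1.26e-05), and NUSAP1, GINS2 and POLA1 differed by 2.40, 1.87 and 1.47 (adjusted p = 9.77e-08, 6.52e-08 and 7.66e-06). Of the replication-dependent histone genes 22 of 24 tested fell in KO cells and 15 of 27 in wild-type cells, and the difference passed as lower in KO for 8 of 27 and as higher for 2. CXCL8, at 59.4 ± 55.6 and 164 ± 22.3 in wild-type cells, was at 4.70 ± 4.98 and 274 ± 30.1 in KO cells with DMSO and etoposide. Its rise in KO cells was 6.09 (log2), a difference of 3.94 (adjusted p = 0.00819). The KO DMSO libraries were near the floor, at 0 to 11.7, and wild-type DMSO replicate 1 was at 4.77. MEOX1, a homeobox factor, and CT45A3, a cancer-testis antigen, were also among the 5 largest differences upward, at 3.23 and 3.03. AC013489.1 was at 3.26, and AC005832.4, with 0 reads in the 4 wild-type DMSO libraries and 12.6, 24.1, 62.7 and 41.4 with etoposide, was among the 5 downward. The wild-type call of MEOX1 was lost without DMSO replicate 1 or 3 or any 1 etoposide library.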

How the data were processed

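RNA of U2OS cells was sequenced after poly-A selection in 32 libraries, per the labels. The authors quantified transcripts with kallisto on GRCh38 and normalized with DESeq2, per the submitters' processing notes, with versions not given in the sources used here. In the matrix as deposited the authors gave log2-like variance-stabilized values after division by library size factors, and the deposited comparison tables held the mean normalized count per gene, a signal of the authors' own, used here only to check the inversion. The values were inverted to normalized counts, whose means equalled the deposited means (largest relative difference 4.43e-14), and 100% of values were whole reads within 0.01 after multiplying by the size factor.

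A gene was tested if 4 or more of the 8 wild-type libraries had 10 or more normalized counts. The test ran on log2(normalized count + 1) with limma 3.58.1 (trend, R 4.3.3) over the 8 libraries, with Benjamini-Hochberg adjustment over all tested genes. The KO response used its own 8 libraries and the difference a fit of 16 libraries. Only the wild-type fit was tried on simulated counts, with the same spread for all genes and no GC trend. It does not cover the GC trends seen here, nor the KO and difference fits. Promoters came from RefSeq tables (GRCh38.p14) and spans from GENCODE 29 (GRCh38). Alternatives covered the pseudocount, filter, scaling, weights, voom, replicate block, GC trend and each library left out in turn. Whether counting used strand is not given, so overlapping and antisense genes cannot be told apart.

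Named genes were the 15 largest rises and falls among called genes without overlap whose mean reached 50 in 1 group, the 10 largest gains and losses in counts, up to 4 rising and 4 falling members per list with central members that did not pass, the 5 largest differences from KO on each side, and CDKN1A, MDM2, TOP2A, TOP2B, TERT and CDKN2A. Other genes were named after their values were seen, and some genes that met the rule are not reported here. The members and lists were chosen with earlier results of these data known.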

Additional observations from a re-analysis of the deposited data

Results flagged for a closer look

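Among 502 groups of 4 libraries looked at, the DMSO and the etoposide libraries of each named gene and of 8 shares, 29 held 1 library far from the other 3, 19 of them among the DMSO libraries and 6 in DMSO replicate 3. Chance gives about 1 in 20 such groups, a rate that does not hold for genes at the floor. For LHX3, LGALS7, GABRQ and RNASE7 the other 3 DMSO libraries had 0 reads. There 1 to 3 reads in 1 library were enough for the flag. Values are normalized counts, each beside the nearest of the other 3 libraries. Replicate 1 of the DMSO group was far above the others for FZD5 (217 against 167), LHX3 (0.953 against 0), NECTIN4 (25.7 against 15) and SCD (13328 against 12004). Replicate 2 of the DMSO group was far above the others for CDKN1B (975 against 733), CLK1 (495 against 361), EREG (60.2 against 29.5), LGALS7 (1.77 against 0) and RNASE7 (2.65 against 0). Replicate 2 of the DMSO group was far below the others for DDB2 (1618 against 2024) and TUBB (87548 against 103608). Replicate 3 of the DMSO group was far above the others for ABCG2 (29.9 against 21.2), CDK4 (10866 against 8578) and FADD (1207 against 892). Replicate 3 of the DMSO group was far below the others for BIK (5.79 against 9.53), FAS (43.4 against 95.3) and LIG4 (11.6 against 64.8). Replicate 4 of the DMSO group was far above the others for GABRQ (2.04 against 0). Replicate 4 of the DMSO group was far below the others for PRKDC (4875 against 5752). Replicate 1 of the etoposide group was far above the others for HEXIM2 (135 against 110.4). Replicate 1 of the etoposide group was far below the others for PRKCA (650.0 against 681). Replicate 2 of the etoposide group was far above the others for RRM2B (3601 against 2949). Replicate 2 of the etoposide group was far below the others for GRHL3 (353 against 381) and LCE1F (323 against 368). Replicate 3 of the etoposide group was far above the others for KRT34 (658 against 559.9), PDGFRB (945 against 889.6) and TP73 (418 against 340.2). Replicate 4 of the etoposide group was far above the others for FLG (543 against 487) and KIAA1210 (16.4 against 5.88).

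The difference between the responses of KO and wild-type cells passed limma's test, with p adjusted over all genes of that fit, for 156 of the 243 named genes, as lower in KO for 82 and as higher for 74. Over all 16093 genes of that fit 19.8% passed, and some named genes were chosen by this difference. The values of 20 of the 156 follow. The KO response was lower, as a difference in log2 fold change, for TREM2 (-8.91, adjusted p = 2.49e-09), FLG (-3.31, adjusted p = 1.25e-06), GDF15 (-3.19, adjusted p = 7.05e-08), IFIT3 (-2.35, adjusted p = 1.32e-06), ISG15 (-2.30, adjusted p = 7.02e-09), FDXR (-2.17, adjusted p = 1.34e-08), MDM2 (-1.80, adjusted p = 1.87e-05), KRT17 (-1.69, adjusted p = 5.0e-07), BBC3 (-1.60, adjusted p = 5.37e-08), CDKN1A (-1.35, adjusted p = 1.49e-06) and BAX (-0.91, adjusted p = 3.67e-05). It was higher for CXCL8 (3.94, adjusted p = 0.00819), FGF21 (3.81, adjusted p = 4.52e-07), AC013489.1 (3.26, adjusted p = 0.00737), MEOX1 (3.23, adjusted p = 0.00069), CT45A3 (3.03, adjusted p = 1.6e-05), NUSAP1 (2.40, adjusted p = 9.77e-08), GINS2 (1.87, adjusted p = 6.52e-08), POLA1 (1.47, adjusted p = 7.66e-06) and PLK1 (1.35, adjusted p = 1.26e-05).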

How the results depend on the processing

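With no filter on low values 5001 genes rose in place of 3203, and with total-count scaling 1522 fell in place of 2520. Among genes over 400 kb, 44.3% fell and 9.50% rose when a mean of at least 100 normalized counts was required, and 40.3% fell with the GC trend removed, in place of 34.9% and 16.3%. Leaving out 1 library at a time gave 2992 to 3433 rises and 2406 to 2638 falls, and 4650 of the 5723 calls were made in each of these 8 fits. Over the same kind of fits the difference from KO passed as lower for 1575 to 1825 genes and as higher for 1410 to 1574. Without DMSO replicate 3, CENPE and SGO2 turned from 0.11 and 0.03 to -0.93 and -0.72 (log2), and across the fits that left out 1 library they reached 0.55 and 0.45. Of 243 named genes 200 kept their direction and their side of the threshold under every setting tried. The other alternatives left the counts of rising and falling genes within 1.5 times the values given.

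With the replicate number as a replicate block 3261 genes rose and 2517 fell, and the difference from KO passed as lower for 1645 and as higher for 1436; no named gene changed its call. Deviations of same-numbered DMSO and etoposide libraries correlated over genes at 0.02, 0.27, -0.02 and 0.03, so the numbers were not taken as pairs, and not every library correlated best with its own number. The depth limits genes near the floor of 3 reads, 2.52 to 3.06 normalized counts.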

Other observations

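Genes in several groups outside the comparisons above also changed. Over all tested genes 20.7% rose and 16.3% fell. Of 24 tested caspase, apoptosome and IAP genes 9 rose and 2 fell: CASP1, an inflammatory caspase, rose from 5.99 ± 4.37 to 113 ± 11.8 normalized counts. Cyclins split, with 7 of 21 rising (33.3%) and 5 falling (23.8%). CCND1 and CCND2, cyclins of early G1, rose from 3158 ± 183 to 5611 ± 351 and from 3243 ± 194 to 5607 ± 263, while CCNA2, a cyclin of S phase and G2, fell from 2040.0 ± 283 to 725 ± 14.7. CDKN2C, which encodes the CDK4 inhibitor p18, fell from 1950.4 ± 250.4 to 519 ± 39.7. Among the E2F and DREAM genes E2F1, an activator, fell from 2249.6 ± 315 to 983 ± 97.4, and E2F7, a repressor and p53 target, rose from 696 ± 73.1 to 1075 ± 77.6, a call lost without DMSO replicate 4 or with the GC trend removed.

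Matrix genes were mixed, and 25.8% of the tested collagens rose and 6.45% fell, beside 20.7% and 16.3% of all tested genes. Of 31 tested collagens 8 rose and 2 fell, with COL7A1, an anchoring fibril of skin, going from 105 ± 2.01 to 461 ± 6.76 and COL8A1 from 612 ± 92.0 to 184 ± 29.3. Of 32 genes of collagen processing 8 fell and 3 rose, and the lysyl oxidase genes LOX, LOXL1, LOXL2, LOXL3 and LOXL4, which cross-link collagen, fell by 1.13, 0.89, 0.77, 1.14 and 1.16 (log2). ITGA2, the alpha 2 integrin, rose from 565 ± 181 to 2889 ± 204. ACTA2, smooth muscle actin, rose from 150.4 ± 35.8 to 911 ± 91.6. Of 20 condensin and cohesin genes 9 fell and 1 rose, with NCAPD2, a condensin subunit, going from 14599 ± 1221 to 4417 ± 243.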
